A study of Mus musculus with 14 samples.

Results

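The subject here is the introns of genes in which several CpG sites differed in methylation between mammary tumours of mice whose mothers ate genistein and tumours of mice whose mothers did not. A gene was included when at least 3 of the CpG sites that the authors listed as differing lay in its introns. This gave 452 sites in 123 genes, out of 4327 listed sites in all and 1103 genes with any listed intronic site. The question put to each gene was whether its sites went the same way. Sites of one gene up to 100 bases apart did so in 99.0% of pairs, while those more than 10000 bases apart did so in 61.7%, against 53.4% for sites of different genes on one chromosome. Genes with more sites give more pairs and so weigh more in these shares.

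All tumours came from offspring of FVB mice that carried the SV40 Tag transgene, which encodes a viral antigen that drives tumour growth. The offspring were about 25 weeks old and had eaten control diet, and control and treated animals alike carried the transgene. Mothers of the maternal genistein group received 250 mg/kg genistein, an isoflavone of soy, in the diet from 4 weeks of age up to weaning, and mothers of the control group received control diet. Reduced representation bisulfite sequencing (RRBS) was done on 3 control and 4 maternal genistein tumours, and RNA sequencing on 3 and 4. The promoter that drives the transgene, the litters and any pooling of animals are not stated in the sources at hand, so the spread between libraries may in part be technical. The diet was given to mothers, and tumours of one group may share a mother. Each n below therefore counts libraries and may exceed the number of treated mothers. Of 13 marker genes of mammary epithelium, stroma, leukocytes and adipocytes, the authors' deposited table of called RNA genes holds Krt5, Krt18 and Vim, with mean normalised counts of 1396, 23159.6 and 15469, and the other 10 could not be looked up. A gene is in that table because the authors called its RNA as differing between the groups. Whether the mix of cells differed was not tested.

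RRBS cuts DNA with a restriction enzyme at short CpG-containing motifs, converts unmethylated cytosine to a base read as T, and counts at each CpG how many reads kept a C. The methylation level at a site is the percent of reads that kept it, over all cells of the tumour piece. Most CpGs inside genes are methylated in mammalian tissue, and introns also hold enhancers and internal promoters, where methylation can be low and can differ between cell types. A bulk level cannot tell a different mix of cells from a different level in each cell. CpGs a few bases apart are read on the same DNA fragments, so their levels share reads.

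The sites had been selected on the difference in pooled methylation between these same groups and its q-value, so the group differences below are descriptions and carry no test. The smallest pooled difference among the 452 sites was 25.0 percentage points and their largest q-value in the authors' deposited table was 0.00666. At the edge of the gene rule, 75 genes had exactly 3 listed intronic sites, while 206 genes just outside it had 2 and 774 had 1. Values are given in the order control replicates 1 to 3, then maternal genistein replicates 1 to 4, and differences are maternal genistein minus control, in percentage points. Positions are mm10.

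Sequence is shown for 5 of the sites, in 3 genes, which lie in RefSeq windows around the start of another gene (GRCm38.p6). They were chosen because they place intronic CpGs beside an annotated transcription start. The CpGs in capitals are the listed sites. The Dixdc1 sequence is a whole window on the plus strand, chr9:50697621-50697920, around the start of the predicted gene Gm51674. The Foxn3 sequence is part of the window of 3300002A11Rik, chr12:99340949-99341030 on the plus strand, and the Rxfp2 sequence is part of the window of Gm38755, chr5:150062151-150062202 on the minus strand.
Dixdc1: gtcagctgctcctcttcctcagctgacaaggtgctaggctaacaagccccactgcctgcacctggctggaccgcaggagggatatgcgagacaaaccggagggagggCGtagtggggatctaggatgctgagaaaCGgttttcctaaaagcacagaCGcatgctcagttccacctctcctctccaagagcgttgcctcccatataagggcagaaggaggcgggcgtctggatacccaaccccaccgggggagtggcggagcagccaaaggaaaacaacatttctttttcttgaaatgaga
Foxn3: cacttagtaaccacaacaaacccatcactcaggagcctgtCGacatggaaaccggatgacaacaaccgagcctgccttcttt
Rxfp2: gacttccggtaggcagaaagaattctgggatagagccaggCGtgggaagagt

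The Dixdc1 window holds 11 CpGs, of which 3 are listed, and 2 copies of CCGG, a palindrome that reads the same on both strands. CCGG was found in 52.8% of all RefSeq start windows of 300 bases, so its presence is a description of the window. Dixdc1 encodes a DIX domain protein of Wnt signalling. At position 50697728, 143 bases before the start of Gm51674, the levels were 0%, 0% and 0% in control libraries and 24.4%, 34.6%, 55.8% and 100% in maternal genistein libraries. At position 50697756 they were 0%, 0% and 0% in control libraries and 17.1%, 34.6%, 55.8% and 100% in maternal genistein libraries. At position 50697777, 94 bases before that start, they were 0%, 0% and 0% in control libraries and 0%, 56%, 55.8% and 100% in maternal genistein libraries. The control libraries had no methylated read at any of the 3 CpGs, and replicate 4 of maternal genistein had no unmethylated one, with replicate 1 lowest of its group and at 0% at the last site.

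The Foxn3 and Rxfp2 windows hold 1 listed site each. Foxn3 encodes a forkhead repressor, and its site at 99340990, 42 bases before the start of 3300002A11Rik, was at 57.7%, 100% and 100% in control libraries and 100%, 13.3%, 28.6% and 55.6% in maternal genistein libraries. The groups overlapped there, and the gene's other sites, at 99285063 and 99285079, went the opposite way, by 43.5 and 35.0 points. Rxfp2, the receptor of the hormone Insl3, had its site at 150062162, 38 bases after the start of Gm38755, at 34.4%, 42.4% and 60% in control libraries and 100%, 87.5%, 81.8% and 72.2% in maternal genistein libraries. Each maternal genistein library lay above each control library at that CpG, and the neighbour at 150062150 was also higher, by 32.9 points.

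Of the 452 sites, 250 had more and 202 less methylation in maternal genistein tumours, so 55.3% were higher, against 56.6% of the 1186 sites in genes with 1 or 2 intronic sites. The median size of the difference was 33.0 points. The range between libraries of one group averaged 39.0 points for control and 45.9 for maternal genistein, both wider than that median difference. Every library of one group lay above every library of the other at 148 of the 452 sites (32.7%), 88 higher and 60 lower, beside a background of 27.8% over all listed sites (15.4% higher and 12.3% lower). Since the listing used this contrast, nothing is read from that share. At 30 sites every control library was at or under 20%, and at 35 sites every control library was at or over 80%.

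Gene by gene, all sites were higher in 48 genes, all were lower in 30, and 45 genes held sites of both directions. How far apart a gene's sites lay went with this split. In 37 genes the sites fell within 1000 bases, and in each of these the sites went one way, with 19 genes higher and 18 lower. In 8 genes the sites spanned more than 1000 and up to 10000 bases, and 5 of them had both directions. In 78 genes the sites spanned more than 10000 bases, of which 29 were higher throughout, 9 lower throughout and 40 had both. Among the 206 genes with exactly 2 intronic sites, which the rule left out, 7 of 118 with sites within 1000 bases had opposite directions, as did 6 of 10 up to 10000 bases and 33 of 78 beyond that. In those genes 97.0% of pairs at 2 to 100 bases went the same way, and 12 of 16 (75%) from there to 1000 bases.

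**Figure D1:**
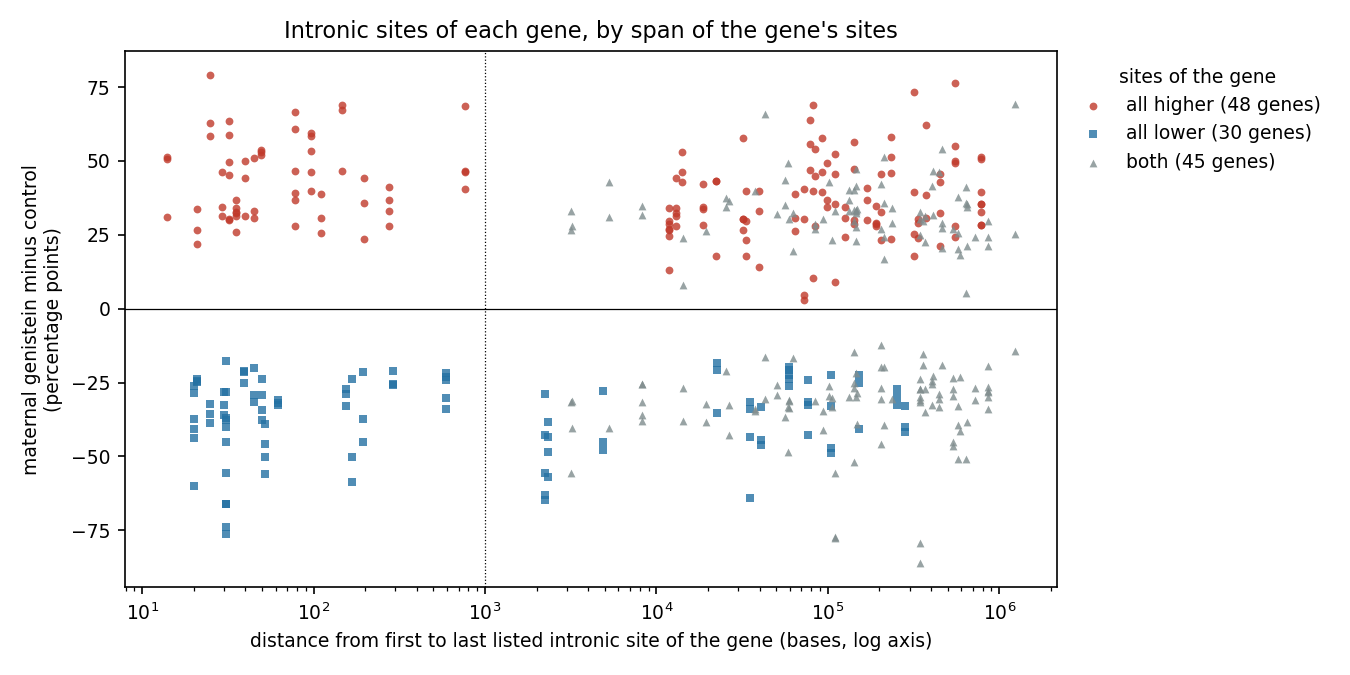
Each point is 1 of the 452 sites, placed by the distance in bases between the outermost listed intronic sites of its gene (log axis) and by its own methylation difference in percentage points, with colour for the directions found in its gene. Genes with both directions appear at spans above 1000 bases, and none of the 37 genes below that span has both.

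Counted as clusters of sites no more than 1000 bases from the next, the 452 sites formed 278 clusters, and 113 clusters held at least 2 sites. Of these, 61 were higher throughout, 50 lower throughout and 2 mixed. The 2 mixed clusters lay in Unc5d, a receptor for netrin, and in Necab2, a calcium-binding protein of neurons. In Necab2, which is named for this count after its values were seen, the site at 119464660 on chromosome 8 differed by -25.6 points and the site at 119464769 by 31.8 points. Of the 86 genes with several clusters, 41 went one way and 45 both ways. Of the 40 genes with at least 3 clusters, 14 went one way.

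Pairs of sites within a gene gave the same picture by distance. At 2 to 100 bases, 208 of 210 pairs in 96 genes went the same way, and at more than 100 and up to 1000 bases 38 of 39 pairs in 20 genes did. From there to 10000 bases the count was 28 of 42 (66.7%), and beyond 10000 bases it was 254 of 412 (61.7%). Pairs of sites in different genes on the same chromosome shared direction in 3720 of 6970 cases (53.4%). Pairs share sites and libraries, so these shares have no independent sample size and were not tested. Genes with many sites also weigh most. In genes with exactly 2 sites, each gives a single pair, and beyond 10000 bases 45 of 78 (57.7%) shared direction. Between those genes the share was 52.3%.

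A measure that does not use the group difference was also highest for close pairs. After the group mean was removed at each site, the levels of the 7 libraries at a pair of sites had a median Pearson correlation of 0.71 at 2 to 100 bases, with quartiles of 0.42 and 0.87. From there to 1000 bases the median was 0.12, up to 10000 bases 0.05 and beyond 10000 bases 0.07, beside 0.06 for different genes. Each correlation rests on 7 libraries, and pairs within 100 bases share reads. The median between 100 and 1000 bases, over 39 pairs, depended on single libraries. It was 0.26 without control replicate 1, 0.01 without control replicate 2 and -0.07 without control replicate 3. Without maternal genistein replicate 3 it was 0.03, without replicate 4 of that group 0.30, and at sites with at least 20 reads 0.33, so whether it lies above that of different genes is not settled. The median at 2 to 100 bases stayed between 0.70 and 0.75 without each library in turn.

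**Figure D2:**
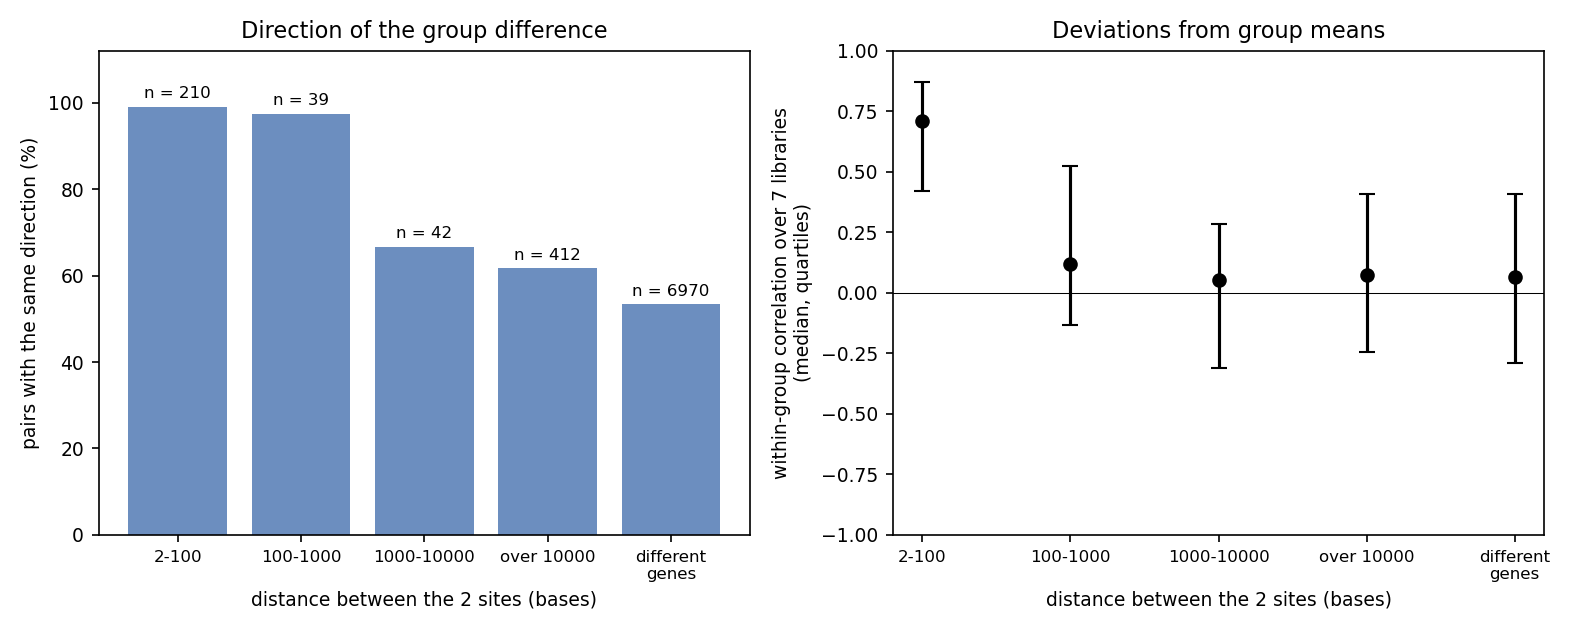
For pairs of intronic sites, by distance class in bases, the left panel gives the percent of pairs that differ in the same direction and the right panel the median Pearson correlation over 7 libraries after removing the group mean, with lines for the quartiles. Same-direction shares run from 99.0% at 2 to 100 bases to 61.7% beyond 10000 bases, and the median correlation from 0.71 to 0.07, with the class from 100 to 1000 bases depending on single libraries.

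Among genes with widely spaced sites of one direction, the homophilic adhesion gene Sdk1, known from synaptic layers of the retina, had the most. Its 8 sites lay in 8 clusters over 782940 bases (chromosome 5, positions 141277400 to 142060340), and each was higher in maternal genistein tumours, by 28.4 to 51.4 points. At the first, 141277400, levels were 15.8%, 33.3% and 33.0% in control libraries and 87.8%, 80.9%, 65.1% and 81.4% in maternal genistein libraries. At 142060340 they were 50.3%, 65.5% and 59.1% in control libraries and 100%, 96.4%, 77.9% and 100% in maternal genistein libraries. At these outermost listed sites the groups lay apart, whereas at 142038201 control libraries were at 0% and maternal genistein replicate 2 was at 0% too. The mean over the 8 sites was 36.9% ± 5.68 in controls (SD, n = 3) against 74.6% ± 7.24 under maternal genistein (SD, n = 4), with 42.3%, 31.0% and 37.3% in control libraries and 75.0%, 64.5%, 77.4% and 81.5% in maternal genistein libraries. These means did not overlap, and coverage of the sites was 13 to 176 reads.

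Ptprm, a receptor phosphatase that binds itself between cells, had 5 of its 6 sites within 46 bases and 1 site 550702 bases further on. At 66686838 the levels were 37.1%, 0% and 8.33% in control libraries and 100%, 100%, 100% and 66.7% in maternal genistein libraries, at 12 to 35 reads. At the distant site, 67237586, they were 68.2%, 88.2% and 54.5% in control libraries and 100%, 100%, 78.9% and 100% in maternal genistein libraries. The groups lay apart at the former and overlapped at the latter, and the mean over the 6 sites was 39.6% ± 10.6 in controls (SD, n = 3) against 86.8% ± 8.96 under maternal genistein (SD, n = 4). Dlg5, a scaffold of cell junctions, had 3 higher sites over 92438 bases. Its gene means were 38.9%, 26.7% and 47.5% in control libraries and 82.9%, 75%, 91.9% and 92.1% in maternal genistein libraries, which did not overlap. The site at 24142368, furthest from the gene's start, had the smallest difference of the 3, with 37.5%, 22.7% and 69.2% in control libraries and 80%, 50%, 100% and 100% in maternal genistein libraries.

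Usp46, a ubiquitin protease, held 5 higher sites in 2 clusters over 12918 bases. At 74048767 each maternal genistein library was at 100%, against 76.2%, 42.9% and 48.6% in control. At 74049005 the levels were 12.5%, 11.4% and 36.5% in control libraries and 63.5%, 41.1%, 36.6% and 51.9% in maternal genistein libraries, at 81 to 257 reads. The groups lay apart at these 2 sites and overlapped at the other 3. Slc24a2, a potassium-dependent sodium and calcium exchanger, was higher at 3 sites over 78394 bases, with gene means of 47.8%, 25.9% and 7.91% in control libraries and 92.3%, 69.3%, 93.8% and 75.6% in maternal genistein libraries, which did not overlap. Ctbp2, a transcriptional corepressor, was higher at 3 sites over 14123 bases. At 133115525 its control libraries were at 1.48%, 0% and 0% and the maternal genistein libraries at 66.7%, 12.3%, 24.8% and 83.8%. In Ctbp2 the groups lay apart at each of the 3 sites, with replicates 2 and 3 of maternal genistein well under replicates 1 and 4 at the paired sites.

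Genes lower throughout over more than 10000 bases were fewer. Casz1, a zinc finger transcription factor, was lower at 4 sites over 35215 bases. At 148849860 the levels were 42.6%, 42.4% and 54.1% in control libraries and 0%, 0%, 12.1% and 0% in maternal genistein libraries. At 148869297 they were 93.2%, 100% and 100% in control libraries and 12.5%, 0%, 74.4% and 47.1% in maternal genistein libraries. Both sites lay apart between the groups, and the second was far more methylated in maternal genistein replicates 3 and 4 than in 1 and 2. Dscaml1, an adhesion molecule of the Dscam family, was lower at 3 sites over 40896 bases, with gene means of 59.4%, 64.9% and 80% in control libraries and 16%, 16.2%, 72.6% and 2.38% in maternal genistein libraries. Maternal genistein replicate 3 stood with the control libraries at each Dscaml1 site, and the other 3 were lower. Reln, the secreted glycoprotein reelin that guides neurons, had 3 lower sites in 2 places over 281213 bases. Its gene means were 68.4%, 74.7% and 62.1% in control libraries and 42.4%, 25.5%, 38.2% and 14.4% in maternal genistein libraries, which did not overlap.

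**Figure D3:**
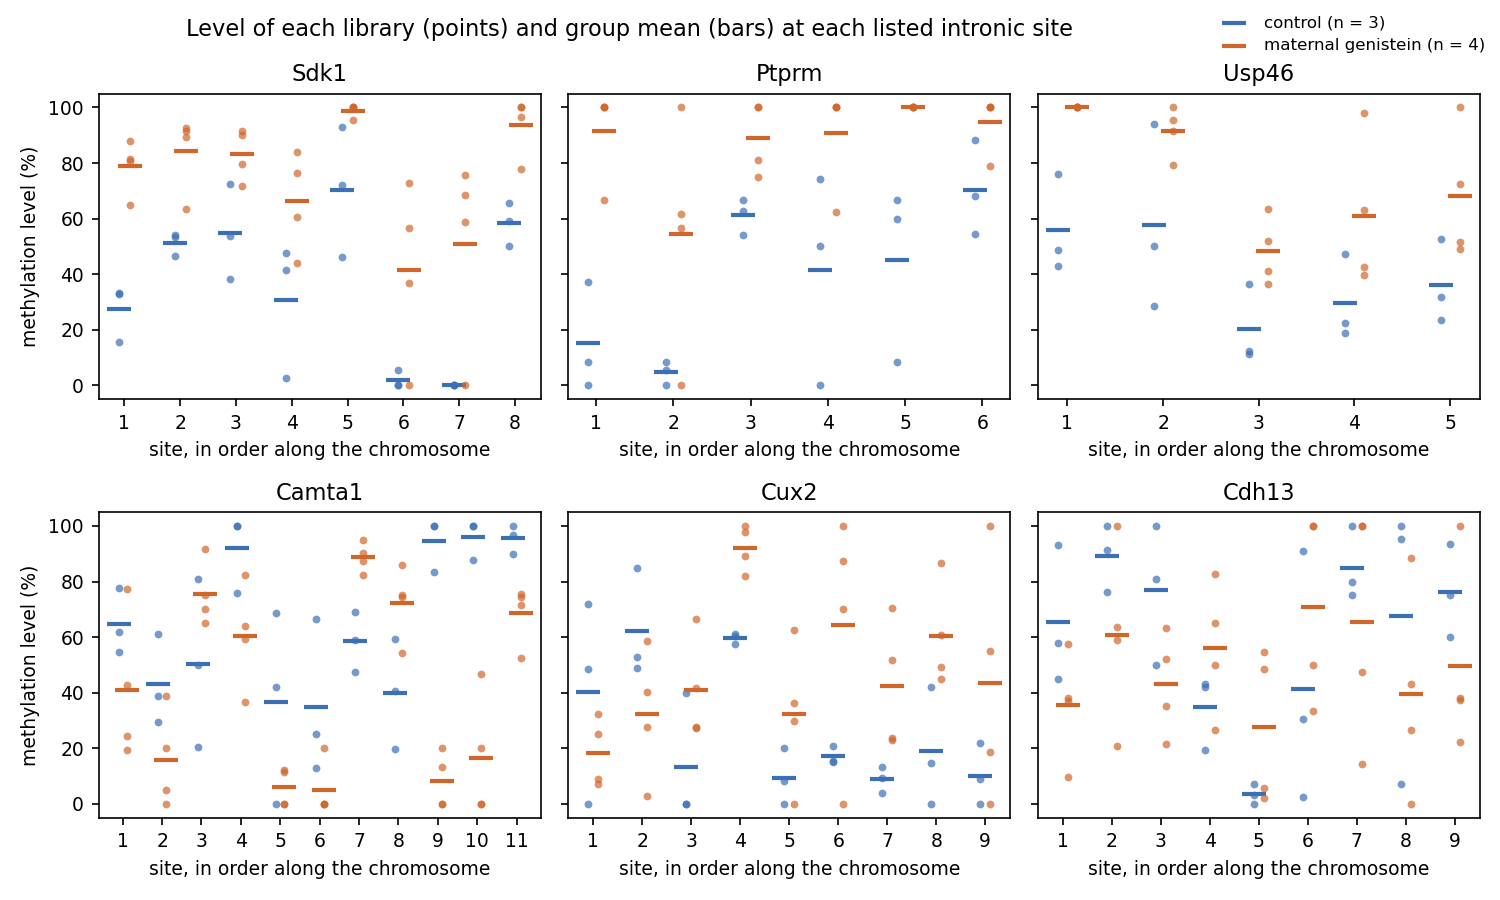
Methylation level in percent at each listed intronic site of Sdk1, Ptprm, Usp46, Camta1, Cux2 and Cdh13, in order along the chromosome, with a point per library and a bar for the group mean (3 control and 4 maternal genistein libraries). Sites of the upper 3 genes are higher in maternal genistein tumours, while the lower 3 genes hold sites of both directions.

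Camta1, a calmodulin-binding transcription activator, had the most sites of any gene, with 11 over 344657 bases, of which 8 were lower and 3 higher. Its differences ran from -86.1 to 32.6 points, the former being the largest of the 452 sites. At 151451677 the levels were 83.3%, 100% and 100% in control libraries and 0%, 0%, 20% and 13.3% in maternal genistein libraries, at 12 to 48 reads. At 151398068, 53609 bases away, they were 47.5%, 69.0% and 58.8% in control libraries and 87.4%, 94.9%, 82.4% and 90.1% in maternal genistein libraries, at 71 to 238 reads. Both sites lay apart between the groups, in opposite directions. Sites of Camta1 within 100 bases of each other went the same way in each of its 3 close groups.

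Cux2, a homeobox factor of cortical neurons, had 9 sites over 145886 bases, 7 higher and 2 lower. The lower ones were the 2 furthest from the gene's start. At 121914395, the most deeply read of the 452 sites at 187 to 287 reads, levels were 52.7%, 85.0% and 49.0% in control libraries and 27.7%, 2.93%, 40.4% and 58.5% in maternal genistein libraries. Maternal genistein replicate 4 lay among the control libraries there. At 121953552 they were 61.3%, 60.4% and 57.4% in control libraries and 81.8%, 89.2%, 97.8% and 100% in maternal genistein libraries, and the groups lay apart. Cdh13, a cadherin anchored to the membrane by a lipid, also had 9 sites, 6 lower and 3 higher, over 864817 bases. The groups overlapped at each of the 9. At its deepest site, 118316200, the levels were 45.0%, 58.0% and 93.1% in control libraries and 9.64%, 37.0%, 57.5% and 38.2% in maternal genistein libraries.

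Wwox, an oxidoreductase encoded across a fragile site, was lower at 5 of 6 sites over 538944 bases. At 115313445, its only site with groups apart, levels were 85.7%, 75.3% and 100% in control libraries and 17.4%, 13.0%, 62.8% and 74.2% in maternal genistein libraries. Foxp1, a forkhead factor, had 3 higher and 3 lower sites, and at each of them the groups overlapped. At 98948976 it was at 80%, 83.3% and 0% in control libraries and 0%, 0%, 13.6% and 0% in maternal genistein libraries. Control replicate 3 was at 0% there, with the maternal genistein libraries, and at 99275804 control replicate 3 was again with that group, at 100%. Sdk2, the paralog of Sdk1, had 4 higher and 2 lower sites, so the paralogs differed in that Sdk1 had no lower site. At 113803612 in Sdk2 the levels were 100%, 75.8% and 58.3% in control libraries and 52.2%, 18.2%, 37.5% and 47.1% in maternal genistein libraries, and at 114015837 they were 11.0%, 16.7% and 12.5% in control libraries and 55.3%, 40.5%, 41.2% and 59.1% in maternal genistein libraries. The groups lay apart at both, lower at the former and higher at the latter.

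Opposed sites also lay close to each other in Unc5d, Dnm3 and Epha2. In Unc5d, the sites at 28661272, 28661277 and 28661331 differed by -35.0, -27.1 and 22.5 points. The level at 28661331 was 94.4%, 63.6% and 35.9% in control libraries and 76.9%, 71.7%, 100% and 100% in maternal genistein libraries, so the groups overlapped. In Dnm3, a dynamin of membrane fission, the site at 162207803 differed by -30.5 points and the site at 162209701, 1898 bases on, by 42.1 points. The groups lay apart at the former and overlapped at the latter. In Epha2, a receptor for ephrin-A ligands, 2 sites near 141309427 were lower and 2 near 141312578 were higher, 3132 bases apart. At 141312578 the levels were 75%, 28.6% and 51.4% in control libraries and 83.7%, 81.2%, 80.2% and 93.8% in maternal genistein libraries, with the groups apart. At 141309427 they were 100%, 58.6% and 100% in control libraries and 67.9%, 0%, 24% and 30% in maternal genistein libraries, with replicate 1 of maternal genistein among the controls.

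Among genes whose sites lay close together were several transcription factors. Trp63, which encodes p63, a transcription factor of basal epithelium, was lower at 4 listed positions within 31 bases (chromosome 16, positions 25835935 to 25835966). At 25835935 its levels were 95.6%, 100% and 94.6% in control libraries and 10.4%, 10.3%, 61.4% and 40% in maternal genistein libraries. The means over the 4 sites were 90.7%, 91.0% and 87.8% in control libraries and 22.3%, 12.0%, 51.2% and 45.6% in maternal genistein libraries, and all control libraries lay above the maternal genistein ones. The listing holds positions 25835965 and 25835966 as separate sites, 1 base apart, as the 2 strands of one CpG would be. Gli2, a factor of Hedgehog signalling, was lower at 3 sites within 167 bases, with gene means of 94.4%, 66.2% and 54.5% in control libraries and 17.5%, 19.6%, 42.6% and 30.0% in maternal genistein libraries. The groups lay apart at each Gli2 site, at 11 to 42 reads.

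Pax2, a paired box factor of kidney development, was lower at 5 sites within 594 bases, the first 3161 bases from its start. At 3 of these sites each maternal genistein library was at 0%, and at 44760088 control replicate 2 alone held methylated reads, at 65%. At 44760632, with 41 to 253 reads, the levels were 58.2%, 40% and 31.2% in control libraries and 5.95%, 17.1%, 20.2% and 7.69% in maternal genistein libraries, which did not overlap. Tle4, a corepressor of the Groucho family, was higher at 3 sites 672 to 712 bases from its start. Its gene means were 19.2%, 4.32% and 5.61% in control libraries and 44.4%, 66.7%, 44.2% and 51.3% in maternal genistein libraries, and the groups lay apart at each site. Meis1, a homeobox factor, was higher at 3 sites within 45 bases 2508 to 2553 bases from its start, with gene means of 44.9%, 13.3% and 22.2% in control libraries and 90.4%, 47.6%, 30.2% and 92.1% in maternal genistein libraries. Replicate 3 of maternal genistein was under the highest control library at each Meis1 site.

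Epas1, the hypoxia-inducible factor 2 alpha, was higher at 3 sites within 32 bases, at 77 to 180 reads. At 86801773 the levels were 25.9%, 15% and 51.8% in control libraries and 93.3%, 74.1%, 100% and 91.1% in maternal genistein libraries. The groups lay apart at each site. Atp11a, a phospholipid flippase, was lower at 5 sites over 2243 bases. Its gene means were 92.5%, 96.3% and 88.3% in control libraries and 39.7%, 32.7%, 46.9% and 46.1% in maternal genistein libraries, and the groups lay apart at each of the 5. Bcas3, a cytoskeletal protein, was higher at 3 sites within 147 bases, with gene means of 16.3%, 11.2% and 43.4% in control libraries and 80.7%, 82.2%, 87.8% and 87.5% in maternal genistein libraries, and the groups lay apart at each. Elovl6, a fatty acid elongase, was higher at 4 sites, where control replicate 2 was at 0% throughout, and its gene means were 35.7%, 0% and 37.5% in control libraries and 76.0%, 68.1%, 87.5% and 68.5% in maternal genistein libraries.

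Libraries of one group differed widely from each other in several of the remaining named genes. Fam160b1 was higher at 3 sites within 25 bases, with gene means of 4.44%, 9.52% and 59.0% in control libraries and 100%, 93.1%, 86.5% and 84.8% in maternal genistein libraries, and control replicate 3 was far above the other controls. Neurl1a, a ubiquitin ligase, was lower at 3 sites within 20 bases. At 47243565 its levels were 91.9%, 92.5% and 93.8% in control libraries and 16.7%, 20%, 25.5% and 68.2% in maternal genistein libraries, with the groups apart, as at the other 2 sites. Cnih3, an auxiliary subunit of AMPA receptors, was lower at 4 sites, with gene means of 68.6%, 46.2% and 86.4% in control libraries and 0%, 6.25%, 18.8% and 19.6% in maternal genistein libraries at 11 to 39 reads. Gse1 was higher at 5 sites within 97 bases, with gene means of 26.0%, 0% and 57.6% in control libraries and 94.7%, 80.2%, 96% and 46.3% in maternal genistein libraries. Control replicate 3 lay above maternal genistein replicate 4 in Gse1, and control replicate 2 was at 0% at each of its sites.

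In Spats2l, control replicate 2 was at 0% at each of 4 sites, while control replicate 3 was at 100% at 3 of them. The gene means of Spats2l were 62.8%, 0% and 88.6% in control libraries and 94.2%, 84.6%, 75.3% and 92.9% in maternal genistein libraries. Lhfp, of the tetraspan membrane proteins, was lower at 4 sites, with 3 of them 923 to 970 bases from its start. At 53042485 the levels were 71.0%, 83.3% and 35% in control libraries and 0%, 0%, 9.09% and 15.2% in maternal genistein libraries, with the groups apart. Anxa2, a calcium-dependent membrane-binding protein, was lower at 3 sites, where maternal genistein replicates 1 and 3 lay with the controls at 69460485 and replicates 2 and 4 were at 0%. Ece1 was lower at 3 sites, with gene means of 47.3%, 73.6% and 78.1% in control libraries and 57.7%, 20.7%, 31.9% and 56.1% in maternal genistein libraries, and the groups overlapped.

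In 53 of the 123 genes the mean level over the gene's sites did not overlap between the groups, beside a background of 27.4% of the 1103 genes with any listed intronic site. A mean over several selected sites was compared, so nothing is read from the share. Of these genes, 21 were among the 37 with sites within 1000 bases and 30 among the 78 with sites beyond 10000 bases.

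**Figure D4:**
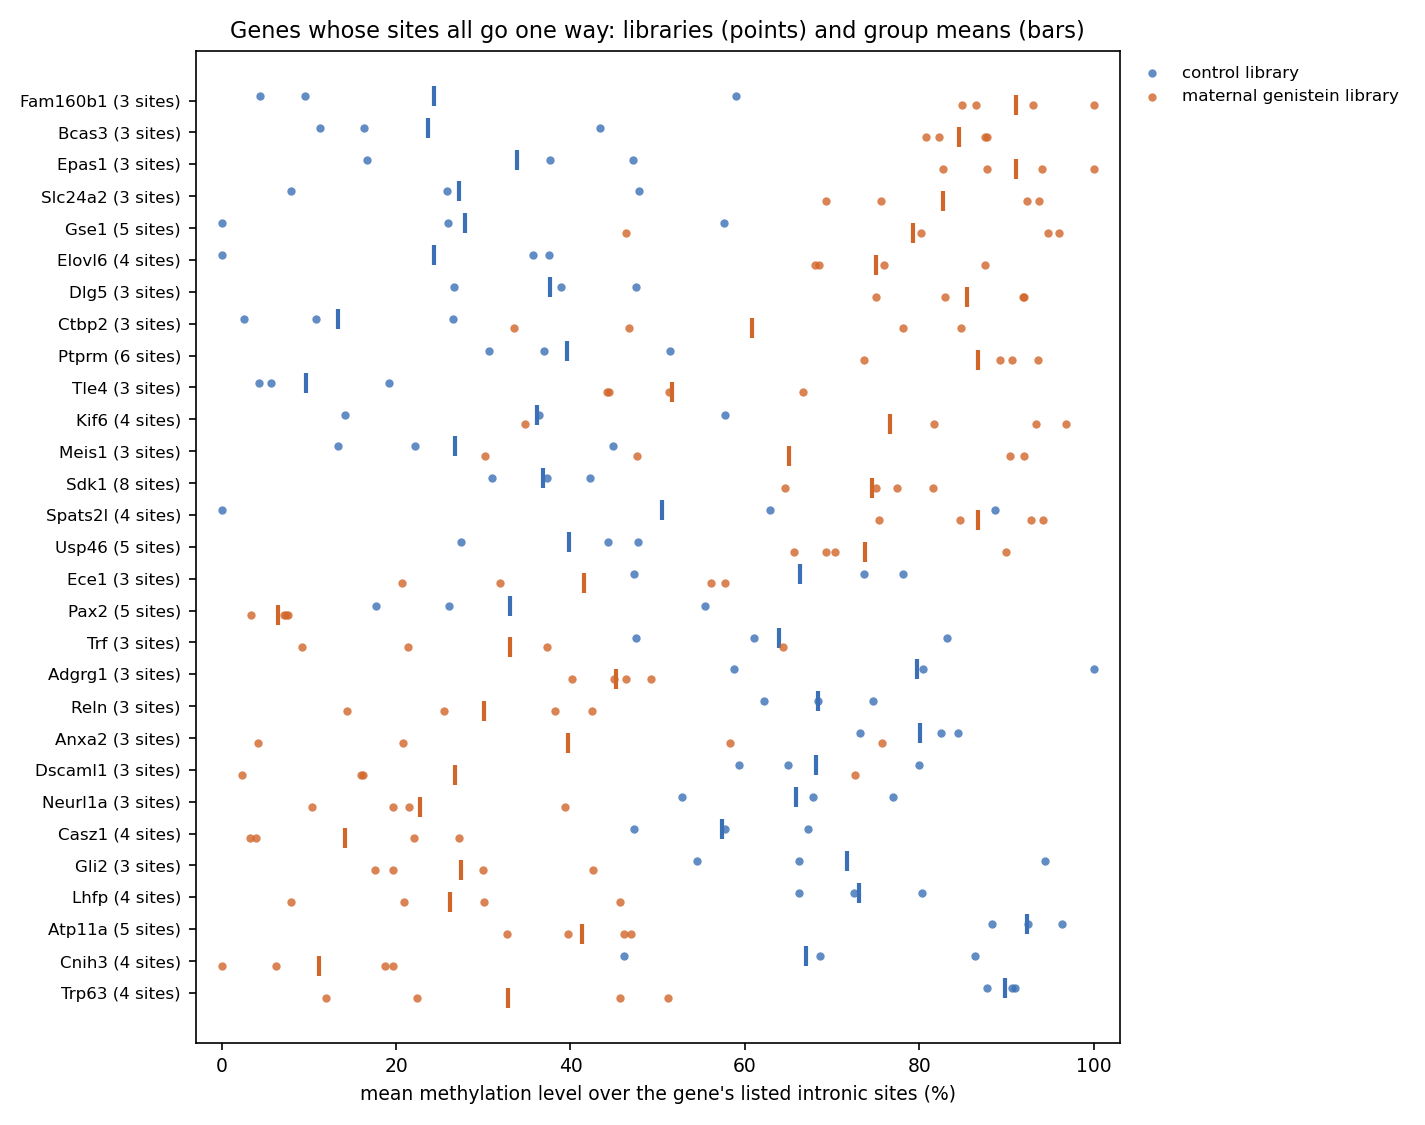
Mean methylation level in percent over a gene's listed intronic sites, for named genes whose sites all go one way, with a point per library and a bar for the group mean (3 control and 4 maternal genistein libraries). Trp63 and Atp11a show groups far apart, while in Meis1, Trf, Anxa2 and Dscaml1 single maternal genistein libraries lie among the controls.

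The authors' table of differing regions, which joins neighbouring CpGs, held 11 regions in the introns of these genes, and each region went the way of the gene's sites. The region of Trp63, from 25835935 to 25835966, had 4 CpGs at 87.8% for control against 33.2% for maternal genistein by the authors' deposited table, and holds the 4 sites given above. The region of Cnih3, from 181426279 to 181426310, was at 65.7% for control against 12.7% for maternal genistein by the authors' deposited table. The region of Gse1, from 120574448 to 120574545, was at 26.1% for control against 80.7% for maternal genistein by the authors' deposited table. That of Fam160b1, which ends in an exon, was at 23.4% for control against 90.6% for maternal genistein by the authors' deposited table. These 4 regions and those of Epas1, Neurl1a and Tle4, 7 in all, contain listed sites, so both tables read the same CpGs.

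The regions of Casz1, Ece1, Elovl6 and Sdk1 contain none of the 452 sites. In Sdk1 the region from 141903240 to 141903288 was at 26.3% for control against 77.2% for maternal genistein by the authors' deposited table, and lies between its sites at 141733938 and 142038201. In Casz1 the region from 148813565 to 148813701 was at 76.7% for control against 38.5% for maternal genistein by the authors' deposited table. In Elovl6 the region from 129595928 to 129595977 was at 17.0% for control against 56.1% for maternal genistein by the authors' deposited table, 21 bases from the nearest site. In Ece1, a protease that makes endothelin, the region from 137913825 to 137914050 begins in an exon and was at 72.4% for control against 18.7% for maternal genistein by the authors' deposited table. These regions come from the same tumours as the sites and are a second reading of the same comparison.

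By function, 12 of the genes are in a list of adhesion and guidance molecules, with 40 higher and 18 lower sites and a median difference of 25.2 points, beside 23.3 over the 452 sites and 18.8 over all listed sites. Of the 12, Dlg5, Ephb1, Ptprm and Sdk1 were higher throughout, Dscaml1 was lower throughout and 7 had both directions. Slit3, a guidance ligand, was higher at 4 of 5 sites, and Robo2, a receptor for Slit ligands, was lower at 2 of 3. A list of transcription and chromatin regulators had 15 genes, with 32 higher and 36 lower sites and a median difference of -21.5 points. Gata4, Meis1 and Tshz2 were higher throughout, Casz1, Gli2, Nfic and Trp63 lower throughout, and 8 had both. That list leaves out other such genes, among them Pax2, lower throughout, Epas1, Tle4 and Ctbp2, higher throughout, and Foxn3, with both directions. The lists were written with earlier results of these data known, and nothing is called particular to a list.

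The smaller lists were mixed. The 5 genes in a list of ion channels and transporters had 9 higher and 10 lower sites, with a median of -12.3 points. Kcnj6 and Slc39a11 were higher throughout and Atp11a lower throughout. Other transporter genes lie outside it, such as Slc24a2, Slc7a5 and Slc37a1, higher throughout, Slc44a1, lower throughout, and Slc9a9, with both directions. The 4 genes in a list of small GTPase and trafficking regulators had 5 higher and 9 lower sites, with a median of -30.9 points. Rasa3, a Ras GTPase-activating protein, was lower at each of its 4 sites. The 3 genes in a list of kinases, phosphatases and growth signalling had 3 higher and 7 lower sites, with a median of -27.9 points, and each had both directions. None of the 3 is a kinase: Dlgap1 is a postsynaptic scaffold, Ltbp1 an extracellular carrier of TGF-beta and Nav2 a cytoskeletal protein of neurons. Kinase genes lie outside that list, such as Ephb1, higher throughout, Eif2ak3, lower throughout, and Taok3 and Epha2, with both directions. The remaining 84 genes are in no list, among them genes of these same functions. The counts are therefore those of the lists and do not describe a whole function.

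Of the 123 genes, 20 (16.3%) are listed in the authors' deposited table of RNA changes, which holds genes with a DESeq adjusted p under 0.05, beside 12.8% of the 1103 genes with a listed intronic site and 5.47% of RefSeq protein-coding genes. The file does not name which group is the numerator of the fold change. Positive is taken to mean more RNA in the maternal genistein group, because the share of positive genes on a chromosome went with the RRBS coverage of that chromosome in that group (Pearson's r = 0.914 across 20 chromosomes). Were it the other way, each RNA sign below would turn. Of 9 genes lower throughout in methylation, 7 had a positive and 2 a negative RNA fold change. Of 7 higher throughout, 4 were positive and 3 negative, and the 4 genes with both directions were positive. With these counts RNA of both signs stood beside methylation of each uniform direction. The share of positive fold changes over the authors' whole RNA table is not given here. Without that background, no link between methylation direction and RNA sign is read from these counts. In bulk tumours, fewer cells of a type and less RNA per cell cannot be told apart.

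Among genes with lower methylation, Trp63 had an RNA log2 fold change of 4.73 (SE 0.71), with a DESeq adjusted p = 6.28e-09, by the authors' deposited table. Atp11a stood at 1.79 (SE 0.34) and Gli2 at 2.41 (SE 0.52) by the authors' deposited table. Adgrg1, an adhesion G protein-coupled receptor, was at 1.90 (SE 0.34) by the authors' deposited table, and its methylation means were 58.8%, 80.5% and 100% in control libraries and 46.3%, 40.1%, 49.3% and 44.9% in maternal genistein libraries. Lhfp at 1.50 (SE 0.43), Casz1 at 1.43 (SE 0.44) and Anxa2 at 0.81 (SE 0.28) were positive too by the authors' deposited table. Negative with lower methylation were Reln at -5.85 (SE 1.58) and Trf, the iron carrier transferrin, at -3.18 (SE 0.50) by the authors' deposited table. The Trf methylation means were 83.1%, 47.5% and 61.0% in control libraries and 37.3%, 64.4%, 21.4% and 9.26% in maternal genistein libraries, with maternal genistein replicate 2 among the controls.

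Among genes with higher methylation, Sdk1 had an RNA log2 fold change of 4.58 (SE 0.47), with a DESeq adjusted p = 7.66e-19, by the authors' deposited table. Kif6, a kinesin, was at 5.25 (SE 0.87) by the authors' deposited table on a mean normalised count of 33.2. Slc24a2 at 3.89 (SE 0.93) and Meis1 at 2.40 (SE 0.69) were also positive by the authors' deposited table. Tle4 at -1.94 (SE 0.39), Spats2l at -2.13 (SE 0.68) and Ctbp2 at -1.06 (SE 0.35) were negative by the authors' deposited table. Of the genes with both directions, Sdk2 was at 3.23 (SE 0.61) and Ltbp1, which binds latent TGF-beta, at 0.78 (SE 0.23) by the authors' deposited table. Dnm3 at 2.12 (SE 0.65) and Thsd4 at 1.00 (SE 0.34) complete them by the authors' deposited table. Ltbp1, Dnm3 and Anxa2 had edgeR false discovery rates of 0.069, 0.0639 and 0.152 by the authors' deposited table, which leaves 17 of the 20 under 0.05.

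Relative RRBS coverage at the sites (log2 reads less the site's mean over libraries and the library's autosomal median) differed between the groups in some of these genes. On the log2 scale the maternal genistein minus control difference was -1.04 at Tle4 and -0.49 at Ctbp2, but 0.35 at Spats2l, 0.10 at Reln and 0.67 at Trf, the 5 genes whose RNA was negative. Among the genes whose RNA was positive, it was largest at Casz1 (0.68), Adgrg1 (0.63) and Lhfp (0.58). In that set it was negative at Ltbp1 (-0.26), Sdk2 (-0.19) and Sdk1 (-0.09). The rest of the set ran from 0.14 at Thsd4 to 0.51 at Kif6, with 0.21 at Trp63. The group that a positive RNA sign stands for was itself taken from RRBS coverage by chromosome, as given above. Coverage and RNA sign are therefore not independent here, and no relation between them is read from these values. The part of coverage in the RNA values was not tested.

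**Figure D5:**
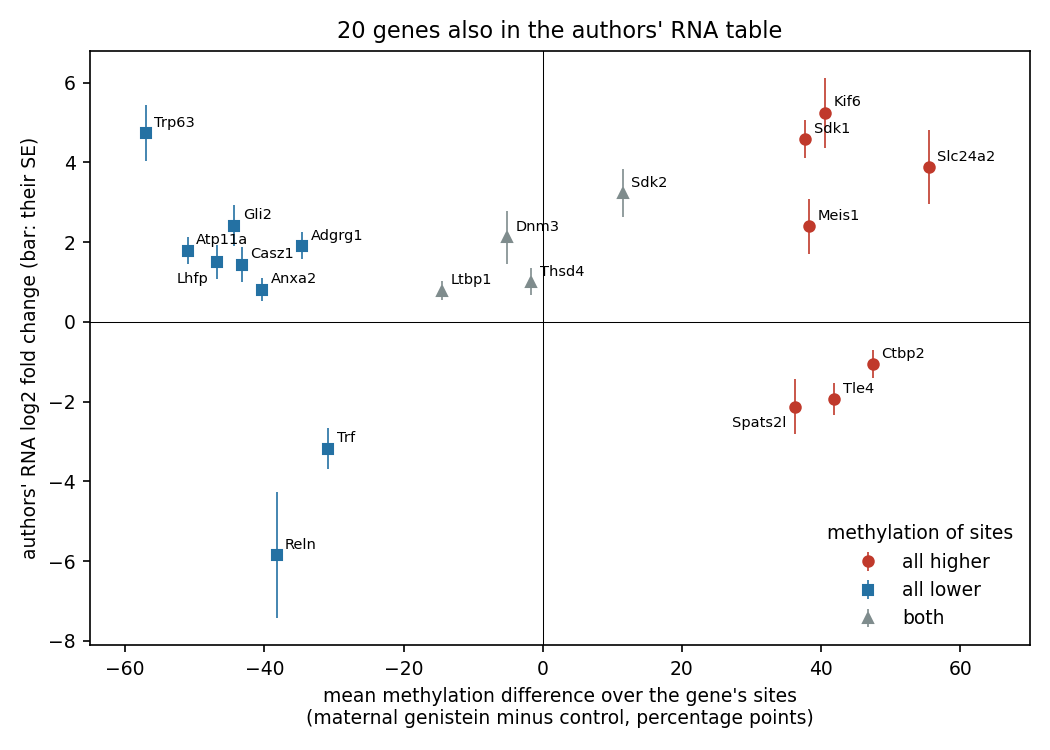
For the 20 genes in the authors' RNA table, the mean methylation difference over the gene's intronic sites in percentage points (x axis) against the authors' RNA log2 fold change with its standard error (y axis), with colour for the direction of the sites. Genes with lower methylation lie on both sides of 0 on the RNA axis, as do genes with higher methylation.

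The 123 genes were long, with a median length of 195182 bases, against 93570 for genes with 1 or 2 intronic sites, and a longer gene can hold more sites. Distance to a RefSeq start was known for 351 of the 452 sites. Of the 21 sites within 1000 bases of a start of their own gene, 8 were higher and 13 lower, and from there to 10000 bases 24 were higher and 44 lower. Beyond 10000 bases, 162 were higher and 100 lower. In the 980 genes with 1 or 2 intronic sites the counts were 35 and 35, 111 and 104, and 365 and 227. So sites far from a start were more often higher in both sets of genes, and the lower excess near starts was seen in the genes described here. The difference between the sets was not tested, and sites of one gene are not independent. On chromosome 11, 33 of 38 sites were higher, in 10 genes, while the 7 sites on the X chromosome, in Tmem164 and Armcx3, were lower. These chromosomes are picked from the counts of all chromosomes, and the X sites form a single cluster in each gene. Neither count was tested.

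The precision of each level is set by its reads. At the 452 sites the control libraries held 23796, 21929 and 19879 reads and the maternal genistein libraries 20862, 18570, 23129 and 11829, with median coverages of 39, 35 and 32, and 35, 29, 38 and 17. Maternal genistein replicate 4 was thus the least precise, and coverage at single sites ran from 10 to 287 reads. Control replicate 3 was the library that alone kept the groups from separating most often, at 77 sites, against 27 to 50 for the others. At the sites higher in maternal genistein tumours its median level was 46.2%, beside 31.7% and 15.1% in control replicates 1 and 2 and 68.8% to 82.8% in the maternal genistein libraries.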

How the data were processed

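Per the submitters' processing notes, the tools were FastQC, Trim Galore, Bismark, STAR, HTSeq, DESeq and R 3.6.1, with builds GRCm38 and mm10. Their steps and other versions: not given in the sources used here. The authors deposited, at 4327 CpG sites, read counts (coverage, methylated and unmethylated) per library, percent methylation, a difference score in percentage points and a p-value and q-value. Tested on the file, each listed site had a pooled difference of at least 25.0 points, a q-value of at most 0.00959 and no library under 10 reads. The deposited difference equals that of reads pooled over the libraries of a group, so deep libraries weigh more. Per the file headers, the authors' region table holds a group's mean methylation as a fraction, given here in percent, and their RNA table holds a signal (the mean normalised count over libraries), log2 fold changes, a standard error and adjusted p-values from DESeq and edgeR. The RNA table lists 1324 genes, each called by the authors, so other genes were not analysed here.

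Levels were recomputed as methylated reads over coverage, averaged over libraries with equal weight. By that mean, 76 of the 452 sites differed by less than 25 points, and at 1 site pooled and mean differences had opposite signs. Direction is that of the mean. Sites were grouped by the authors' gene name and their intronic annotation. A name turned into a date by a spreadsheet was placed by position as Sept9. Clusters join sites at most 1000 bases apart, and pairs were put in distance classes. No test was run between groups, since the sites were selected on that contrast. The counting of pairs was tested on simulated data. RefSeq windows (GRCm38.p6) reach 250 bases before and 50 after a gene's start. Python 3.11.15, numpy 2.4.6, pandas 2.3.3 and matplotlib 3.10.9 were used.

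The members, the gene lists and the comparisons were chosen with earlier results of these data known. Named genes follow a written rule: the 10 with the most sites (ties by mean coverage); among genes of one direction spanning over 1000 bases, the 4 largest and 4 smallest mean differences; the 5 mixed genes with the most sites in the rarer direction (ties by the shorter distance between opposed sites); 5 with the largest share of sites whose groups lie apart (ties by the larger mean difference); each gene in the RNA table; and each gene with a listed region in an intron. Genes shown for a sequence or as members of a list fall outside this rule. Alternatives were leaving out each library, a coverage minimum of 20 reads, merging positions 1 base apart, genes with at least 4 sites, and genes in several clusters. Directions and mean differences were also taken from reads pooled within each group, where 1 site changed sign.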

Additional observations from a re-analysis of the deposited data

Results flagged for a closer look

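The mean levels of the 40 named genes were examined for a library far from the others of its group, which 4 maternal genistein libraries allow and 3 control libraries do not. Chance alone flags about 1 in 20 such groups. In Ltbp1, maternal genistein replicate 2 had a mean level of 17.5% over the gene's 3 sites, while replicates 1, 3 and 4 had 44.9%, 44.8% and 43.8%. In Pax2, replicate 2 of the same group had a mean level of 3.41% over 5 sites, while replicates 1, 3 and 4 had 7.14%, 7.65% and 7.42%, so the gap there is a few percentage points.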

How the results depend on the processing

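Without each library in turn, the share of pairs going the same way at 2 to 100 bases ran from 96.2% to 98.6%. The distance classes kept their order except without control replicate 2. There the share was 96.2% at 2 to 100 bases and 97.4% between 100 and 1000 bases. Both stayed above the 66.7% between 1000 and 10000 bases and the 59.7% beyond. Sites with groups apart numbered 175 to 225 without each library in turn, against 148, the highest being without control replicate 3. With 1 library fewer, separation is easier to reach. Leaving out a library gave 43 to 48 genes higher throughout, 29 to 30 lower throughout and 45 to 50 with both. Mean differences near 0 in genes with both directions turned positive without some libraries: Thsd4, from -11.4 to 8.17 over the libraries left out, to 3.59, 2.85 and 8.17 (without control replicate 1, control replicate 3 and maternal genistein replicate 2), Unc5d, from -9.53 to 4.69, to 2.86, 4.69 and 1.25 (without control replicate 1 and maternal genistein replicates 2 and 4), Dnm3, from -13.5 to 2.90, to 2.90 (without control replicate 2) and Epha2, from -16.1 to 2.76, to 2.76 (without maternal genistein replicate 2). The cause was not tested. A minimum of 20 reads left 121 sites, of which 65 in 19 genes kept 3 to a gene: 43 higher, 22 lower, 28 with groups apart, and 10 genes higher throughout, 4 lower throughout and 5 with both. Its same-direction shares were 100% up to 10000 bases, 66.7% beyond and 62.6% between genes, with a median correlation of -0.36 between 1000 and 10000 bases. Fewer sites enter by construction, and Camta1 moved to -7.75 and Cux2 to 12.0 points. Genes with at least 4 sites gave 17, 11 and 20, and genes in several clusters 29 and 12, with 45 mixed. No paired analysis was possible because the results come from no test and the labels do not tie equal replicate numbers to a shared litter or day. Depth limits single levels most in maternal genistein replicate 4, with a median of 17 reads.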
